A study of Mus musculus with 62 samples.

Results

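The genes of the proteasome and its direct regulators were followed in a shin muscle of mice, the tibialis anterior, during melanoma-induced cachexia, in which a tumour leads to loss of muscle and fat mass. Members were all rows of the expression table whose symbol begins with Psm, one of the letters a to g and a digit, with pseudogene rows left out. This gave 50 of 47643 rows, of which 47 passed the filter of a mean of at least 1 TPM (transcripts per 1000000, a share of the library that is corrected for transcript length) and stood among the 11107 genes tested.

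The 62 libraries fall into 12 groups by injection and week. CAC mice had received melanoma cells that the submitters call cachectic, NCAC mice melanoma cells that they call non-cachectic, and mock mice (Con) a mock injection whose content is not stated. Muscles were taken 2, 4, 6 or 8 weeks later. There were 7 libraries for CAC at 8 weeks and 5 for each other group. All mice were female, and the labels give an age of 2 months for every week. The sources disagree on the strain, since the sample labels give C57BL6/J and the series' design text gives NCI Ath/nude mice, so the strain is not settled here, nor is the state of the immune system that would follow from it. The extraction text also mentions an injection of LLC cells, which no group label names. The labels do not name the melanoma lines or a sequencing batch. They call the libraries biological replicates without naming the animals, so p-values measure the spread between these libraries.

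The proteasome is the cell's main protease for proteins that carry ubiquitin chains. Its barrel-shaped core is built from outer rings of alpha subunits (Psma genes) and inner rings of beta subunits (Psmb genes), 3 of which (Psmb5, Psmb6 and Psmb7) hold the catalytic sites. A cap binds the core ends: its ATPase ring (Psmc genes) unfolds substrates, while its other subunits (Psmd genes) bind and remove ubiquitin. Psmb8, Psmb9 and Psmb10 replace the constitutive catalytic subunits in the immunoproteasome, which interferons induce, Psme genes encode alternative activators of the core, and Psmg genes and a few Psmd genes encode chaperones that assemble it. In skeletal muscle the ubiquitin-proteasome system is known for degrading contractile proteins during atrophy.

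The promoters of 6 members on which the results turn are shown first. Psmd4, Psma7 and Psmd11 rose in CAC muscle at both late weeks as deposited and after the size-factor rescaling described below, with all libraries. The others are Psmb5 and its immunoproteasome counterpart Psmb8, and Psme1, which fell at 6 weeks. Each line is the 250 bases upstream of a RefSeq transcript start, read from 5′ to 3′ on the gene's strand (RefSeq, GRCm38.p6), with the bases of any motif found in capitals.
Psmd4: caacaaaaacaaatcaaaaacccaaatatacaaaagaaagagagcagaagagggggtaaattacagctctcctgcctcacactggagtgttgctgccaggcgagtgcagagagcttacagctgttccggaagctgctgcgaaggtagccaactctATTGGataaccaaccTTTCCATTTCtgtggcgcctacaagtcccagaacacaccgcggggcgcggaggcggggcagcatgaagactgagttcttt
Psma7: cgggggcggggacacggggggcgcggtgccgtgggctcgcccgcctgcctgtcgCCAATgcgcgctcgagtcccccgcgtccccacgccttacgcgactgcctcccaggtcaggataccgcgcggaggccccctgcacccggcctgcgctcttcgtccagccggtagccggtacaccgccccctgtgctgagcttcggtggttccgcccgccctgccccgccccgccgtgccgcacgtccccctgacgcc
Psmd11: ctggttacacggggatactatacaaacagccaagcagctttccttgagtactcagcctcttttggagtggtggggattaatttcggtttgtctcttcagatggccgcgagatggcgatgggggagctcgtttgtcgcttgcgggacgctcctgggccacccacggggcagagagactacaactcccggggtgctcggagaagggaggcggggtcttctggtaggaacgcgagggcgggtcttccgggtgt
Psmb5: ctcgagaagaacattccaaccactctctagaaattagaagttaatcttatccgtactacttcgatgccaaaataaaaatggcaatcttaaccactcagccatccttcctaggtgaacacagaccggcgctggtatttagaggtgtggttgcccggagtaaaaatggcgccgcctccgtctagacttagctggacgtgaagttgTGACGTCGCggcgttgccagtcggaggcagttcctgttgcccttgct
Psmb8: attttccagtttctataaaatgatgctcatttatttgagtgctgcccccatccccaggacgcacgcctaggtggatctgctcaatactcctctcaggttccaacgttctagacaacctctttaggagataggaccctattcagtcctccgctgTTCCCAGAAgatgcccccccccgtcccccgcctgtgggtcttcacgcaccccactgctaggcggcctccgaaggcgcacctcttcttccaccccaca
Psme1: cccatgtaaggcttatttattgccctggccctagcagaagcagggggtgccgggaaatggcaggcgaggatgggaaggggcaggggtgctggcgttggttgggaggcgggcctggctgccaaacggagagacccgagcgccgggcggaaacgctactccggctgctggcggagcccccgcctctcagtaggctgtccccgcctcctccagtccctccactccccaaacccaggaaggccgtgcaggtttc

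These windows lie at chr3:95042615-95042864 on the minus strand for Psmd4, chr2:180042465-180042714 on the minus strand for Psma7 and chr11:80428365-80428614 on the plus strand for Psmd11. Those of Psmb5 (chr14:54617996-54618245, minus strand), Psmb8 (chr17:34197945-34198194, plus strand) and Psme1 (chr14:55578244-55578493, plus strand) are given the same way. RefSeq and GENCODE place some starts differently. By the GENCODE coordinates given with each gene below, the Psmb8 and Psme1 windows lie wholly inside the gene's outer bounds and that of Psmb5 overlaps them. For Psma7 the RefSeq start lies upstream of the GENCODE gene end, and the 20 bases checked downstream of it were not in a GENCODE transcript of the gene, while those of the other 5 were. The motifs searched on both strands were the antioxidant response element core TGACNNNGC, the CCAAT box CCAAT, the GAS element TTCNNNGAA and the interferon-stimulated response element core, which is GAAA, any 2 bases and GAAA again, with N for any base. Psmb5 held the antioxidant response element core, Psmb8 the GAS element, which reads alike on both strands, Psma7 a CCAAT box, and Psmd4 a CCAAT box and the interferon-stimulated core on its other strand. None of the 4 was in the windows of Psmd11 and Psme1. Of 42 members with a promoter in the RefSeq table, 5 held the antioxidant core (11.9%, against 11.5% of 27025 genes), 15 the CCAAT box (35.7% against 37.5%), 2 the GAS element (4.76% against 8.13%) and 3 the interferon-stimulated core (7.14% against 3.46%). These are matches of letters and say nothing on binding.

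TPM fixes the total of every library at 1000000, and mitochondrially encoded transcripts took 38.6% ± 3.39 (SD, n = 5) of CAC muscle at 6 weeks against 47.9% ± 2.74 (n = 5) of mock muscle, and 37.7% ± 2.43 (n = 7) against 48.8% ± 7.08 (n = 5) at 8 weeks. A smaller share there raises all other values in a library. Each difference is therefore given as deposited and after rescaling the libraries by median-of-ratios size factors (0.614 to 1.469), which moved the median of all genes in CAC against mock muscle by 0.12, 0.11, 0.36 and 0.43 on the log2 scale at 2, 4, 6 and 8 weeks. Estimated depth was 46.3 to 54.1 M reads per library (M for 1000000). On the first principal component (49.7% of the variance) 3 libraries stood apart from the others: CAC 8 weeks replicates 1 and 6 and CAC 6 weeks replicate 1. At the opposite end NCAC 6 weeks replicate 4 also lay apart (-49.9, the next at -31.7), with 61.1% mitochondrially encoded transcripts. Without it 32 members were higher and 1 lower in CAC against NCAC muscle at 6 weeks as deposited, where 37 were higher with all libraries. No share of all genes is given for the set without it. Summed TPM of 10 muscle fibre markers was of the same order in all groups at 6 and 8 weeks, with means of 85030 to 89840 as deposited. As deposited limma called 2 of the 10 higher and 1 lower in CAC against mock muscle at 6 weeks (60.7% and 3.26% of all genes). At 8 weeks it called 3 higher and 2 lower (69.4% and 5.09%). After rescaling 3 were lower and none higher at 6 weeks, against 18.1% of all genes lower. At 8 weeks 4 were lower (median -0.28), against 24.2%. Compared with NCAC muscle at 8 weeks 2 were higher and 1 lower as deposited (67% and 5.04%), and 5 were lower after rescaling (24.3%). In bulk tissue fewer cells of a type and less RNA per cell cannot be told apart.

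In mock muscle the constitutive subunits were not expressed at equal levels, on the length-corrected TPM scale. Over 20 mock libraries the 31 genes of the core and the cap ranged from Psmd11 (26.4 TPM ± 3.53, SD), a cap subunit that holds the cap to the core, to Psmb1 (173.8 TPM ± 17.0), a structural beta subunit. Next above Psmd11 came Psmd14, the deubiquitinase of the cap (31.7 TPM ± 3.43), and Psmd13 (32.2 TPM ± 3.75), which lay within 1 SD of each other. The 3 constitutive catalytic subunits were close together, with Psmb5 at 103.8 TPM ± 12.8, Psmb7 at 104.2 and Psmb6 at 106.9. Their immunoproteasome counterparts were far lower, with Psmb10 at 12.7 TPM ± 3.58, Psmb8 at 4.25 ± 1.60 and Psmb9 at 1.90 ± 0.587. Among the activators Psme4 stood at 63.1 TPM ± 15.3, Psme3 at 31.8, Psme1 at 22.8 ± 2.11 and Psme2 at 20.7 ± 2.99, the last 2 within 1 SD of each other.

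The largest increases in CAC muscle were in the cap and in the outer ring of the core. Psmd4, the cap's ubiquitin receptor, was at 287.9, 171.8, 107.7, 133.0 and 118.2 TPM in the 5 CAC libraries at 6 weeks. It was at 79.0, 63.5, 56.9, 64.1 and 65.1 TPM in mock muscle and at 64.6, 70.4, 69.3, 53.4 and 66.0 TPM in NCAC muscle of that week. All 5 CAC libraries lay above every mock and NCAC library, and replicate 1 was far above the rest. The difference from mock muscle was 1.22 (SE 0.22) on the log2(TPM + 1) scale, with a limma adjusted p of 1.106e-05, and 0.78 after rescaling (adjusted p = 0.0007611).

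At 8 weeks Psmd4 ranged in the 7 CAC libraries from 76.2 TPM over a median of 116.4 to 340.6, against 59.0, 70.9, 55.8, 67.6 and 49.1 TPM in mock muscle. No CAC library overlapped the mock libraries, but the lowest one, at 76.2 TPM, was under the highest NCAC library (77.5 TPM). The mean was 2.55 times that of mock muscle, a log2 difference of 1.18 (SE 0.20; adjusted p = 1.565e-06), or 0.66 after rescaling (adjusted p = 0.001017). Without the 3 libraries that stood apart it was 0.99 at 6 weeks and 0.81 at 8 weeks as deposited, and 0.61 (adjusted p = 0.0001838) and 0.35 (adjusted p = 0.01498) after rescaling. Psmd4 lies at chr3:95032694-95042614 on the minus strand (GENCODE M21, GRCm38), and its promoter is the first of those shown.

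Psma7, an alpha subunit of the outer ring (chr2:180036374-180042433, minus strand), followed the same course. It was at 198.2, 103.0, 79.5, 87.1 and 73.9 TPM in CAC muscle at 6 weeks and at 52.2, 48.1, 39.7, 44.1 and 43.3 TPM in mock muscle. At 8 weeks the CAC libraries ran from 51.7 TPM over a median of 82.5 to 251.0, and the mock libraries from 37.2 to 50.7 TPM. The groups did not overlap at either week, though at 8 weeks the lowest CAC library was less than 1 TPM above the highest mock library. Its log2 difference was 1.14 (SE 0.21; adjusted p = 2.491e-05) at 6 weeks and 1.08 (SE 0.20; adjusted p = 5.858e-06) at 8 weeks, and 0.71 and 0.57 after rescaling, both still called. Without the 3 libraries the rescaled difference at 8 weeks was 0.25 and no longer passed (adjusted p = 0.055).

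Psmd11 (chr11:80428615-80473248, plus strand), whose level was the lowest of the 31 subunits in mock muscle, was at 87.7, 55.7, 43.3, 39.6 and 40.1 TPM in CAC muscle at 6 weeks. Mock libraries of that week held 28.6, 26.0, 23.8, 26.1 and 22.9 TPM. At 8 weeks the CAC libraries ranged from 31.8 TPM over 48.2 to 123.9, and the mock libraries were at 24.0, 35.9, 26.9, 26.7 and 20.8 TPM. The groups were apart at 6 weeks and overlapped at 8 weeks through the mock library at 35.9 TPM. Differences of 0.97 (adjusted p = 0.0001424) and 0.95 (adjusted p = 3.104e-05) became 0.55 and 0.44 after rescaling, and the latter was 0.13 (adjusted p = 0.3575) without the 3 libraries.

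Psmd8, a lid subunit of the cap (chr7:29174188-29180701, minus strand), was at 188.6, 171.1, 88.6, 94.8 and 104.1 TPM in CAC muscle at 6 weeks against 69.1, 47.9, 43.8, 57.8 and 51.9 TPM in mock muscle. Every CAC library was above every mock library, and the difference was 1.19 (SE 0.21; adjusted p = 1.141e-05), or 0.76 after rescaling. By week 8 the CAC range was 61.6 to 193.2 TPM with a median of 100.1, and mock muscle reached 79.1 TPM, so the groups overlapped. The difference of 0.80 (adjusted p = 0.0003473) fell to 0.28 after rescaling and did not pass (adjusted p = 0.1636). Psmd2, a large cap scaffold subunit to which shuttle proteins dock (chr16:20651652-20663414, plus strand), differed by 0.97 at 6 weeks and 0.95 at 8 weeks, and by 0.54 and 0.43 after rescaling. Its CAC libraries ranged from 167.4 to 373.0 TPM at 6 weeks and from 125.2 to 424.6 at 8 weeks, against mock ranges of 94.8 to 119.9 and 74.4 to 125.4 TPM, so that only the 8-week groups touched. Without the 3 libraries the rescaled difference of Psmd2 was 0.395 at 6 weeks (limma adjusted p = 0.002176). At 8 weeks it was 0.19 and no longer passed (limma adjusted p = 0.09811).

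Psma3 (chr12:70974621-70996347, plus strand) rose with a smaller spread between libraries than Psmd4. It was at 131.8, 101.0, 94.4, 84.4 and 83.0 TPM in CAC muscle at 6 weeks, against 65.2, 54.3, 52.8, 54.5 and 51.5 TPM in mock muscle. CAC libraries at 8 weeks held 80.5 to 174.5 TPM with a median of 97.9, and the highest mock library 66.4 TPM. The groups were apart at both weeks. Its differences of 0.80 (SE 0.13) at 6 weeks and 0.87 (SE 0.12) at 8 weeks had the smallest adjusted p among members, 2.632e-06 and 3.198e-08. Without the 3 libraries the rescaled difference at 8 weeks was 0.24 (adjusted p = 0.005208).

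**Figure D1:**
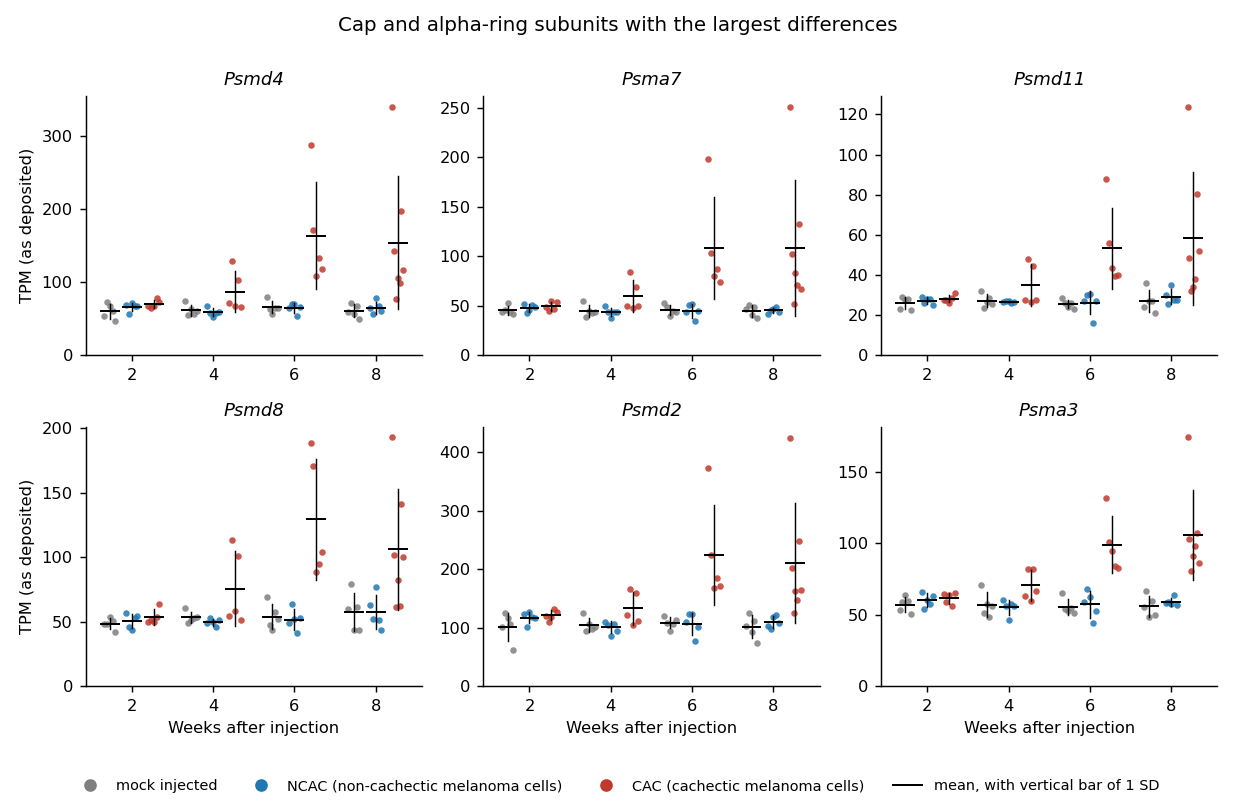
TPM per library of Psmd4, Psma7, Psmd11, Psmd8, Psmd2 and Psma3 by week (x axis) in mock (grey), NCAC (blue) and CAC (red) muscle, with the mean and 1 SD of each group. CAC libraries at 6 and 8 weeks lie above most others and spread widely, Psmd4 from 107.7 to 287.9 TPM at 6 weeks and from 76.2 to 340.6 TPM at 8 weeks.

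Across the whole set at 6 weeks, 38 of 47 members rose and 1 fell in CAC against mock muscle, where 60.7% of all 11107 genes were called higher and 3.26% lower. After rescaling 15 rose and 3 fell, against 16.9% and 18.1% of all genes. The 15 became 6 without CAC 6 weeks replicate 1, a count for which no share of all genes is given. A second rescaling left out the mitochondrially encoded genes and brought the others to 1000000 TPM per library, without size factors. On that scale 29 rose and 1 fell, against 38.3% and 8.1% of all genes. The median difference of the members was 0.59 against 0.38 for all genes, or 0.16 against 0.01 after rescaling, and 32 of the 47 lay above the median of all genes. In 32 members all CAC libraries lay above all mock libraries, as in 44.3% of all genes, and in 1 member they lay below, as in 1.95%.

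At 8 weeks 41 members rose and none fell by limma as deposited (69.4% and 5.09% of all genes), where 41 in all had an unadjusted p under 0.05. After rescaling 7 rose and 8 fell, against 24.9% and 24.2% of all genes. The 7 became 4 without CAC replicate 1 and 11 without CAC replicate 3, while the 8 became 5 without mock replicate 1 or 2. For these counts with a library left out no share of all genes is given. Rescaled without the mitochondrially encoded genes, 25 rose and 2 fell, against 46.9% and 12.3% of all genes, so the near-even split was seen with the first rescaling only. The median of the members was 0.52 against 0.46 for all genes, and 0.03 against 0.02 after rescaling. Median-of-ratios size factors bring the typical gene of each library to a common level. A small median of all genes and a near-even split of their calls therefore come with that scale. In 14 members the groups did not overlap, with CAC above mock, as in 38% of all genes. For Psmb5, Psmb7 and Psmd10 the direction of the call turned with the scale, from higher as deposited to lower after rescaling. The 8 that fell after rescaling were Psmb5, Psmb7, Psmb9, Psmb10, Psmd9, Psmd10, Psme1 and Psmc3ip. The same 7 members that rose after rescaling at 8 weeks also did so at 6 weeks: Psma3, Psma7, Psmd1, Psmd2, Psmd4, Psmd11 and the ATPase subunit Psmc2.

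By place in the complex, the non-ATPase cap subunits had the largest medians in both weeks with all libraries. All 11 rose at 6 weeks (median 0.83), and 9 did so after rescaling (median 0.40), while Psmd6 and Psmd13 missed the threshold there, with 0.21 (adjusted p = 0.1451) and 0.15 (adjusted p = 0.1739). Their summed level was 1337 TPM ± 452.7 (SD, n = 5) in CAC muscle and 697.3 TPM ± 65.3 (n = 5) in mock muscle. At 8 weeks all 11 rose as deposited (median 0.69), and 4 after rescaling (median 0.17), with summed levels of 1260 TPM ± 517.2 (n = 7) and 699.0 TPM ± 104.8 (n = 5). Without the 3 libraries that stood apart, limma called only Psmd4 of the 11 higher after rescaling at 8 weeks (0.35, adjusted p = 0.01498). Psmd14 was then called lower (-0.22, limma adjusted p = 0.006221). Of the cap ATPases all 6 rose at both weeks (medians 0.73 and 0.59), but after rescaling only Psmc1, Psmc2 and Psmc6 did at 6 weeks and only Psmc2 at 8 weeks. Psmc4, an ATPase of the ring, rose by 0.71 at 6 weeks and 0.58 at 8 weeks, and neither value passed after rescaling (0.28 and 0.07).

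The 7 alpha subunits all rose at both weeks (medians 0.73 and 0.57), 3 of them after rescaling at 6 weeks (Psma3, Psma4 and Psma7) and 2 at 8 weeks. The 7 constitutive beta subunits also all rose as deposited, with smaller medians of 0.56 and 0.43. After rescaling none of them was called higher by limma, at an adjusted p under 0.05, at either week, and 2 fell at 8 weeks. The cap chaperones (2 of 3 higher at each week), the inhibitor Psmf1 and the core chaperones (1 of 4 higher at 6 weeks, 4 of 4 at 8 weeks) had medians of 0.32, 0.41 and 0.19 at 6 weeks and 0.26, 0.36 and 0.37 at 8 weeks. These medians are descriptions, and the differences between the parts were not tested.

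**Figure D2:**
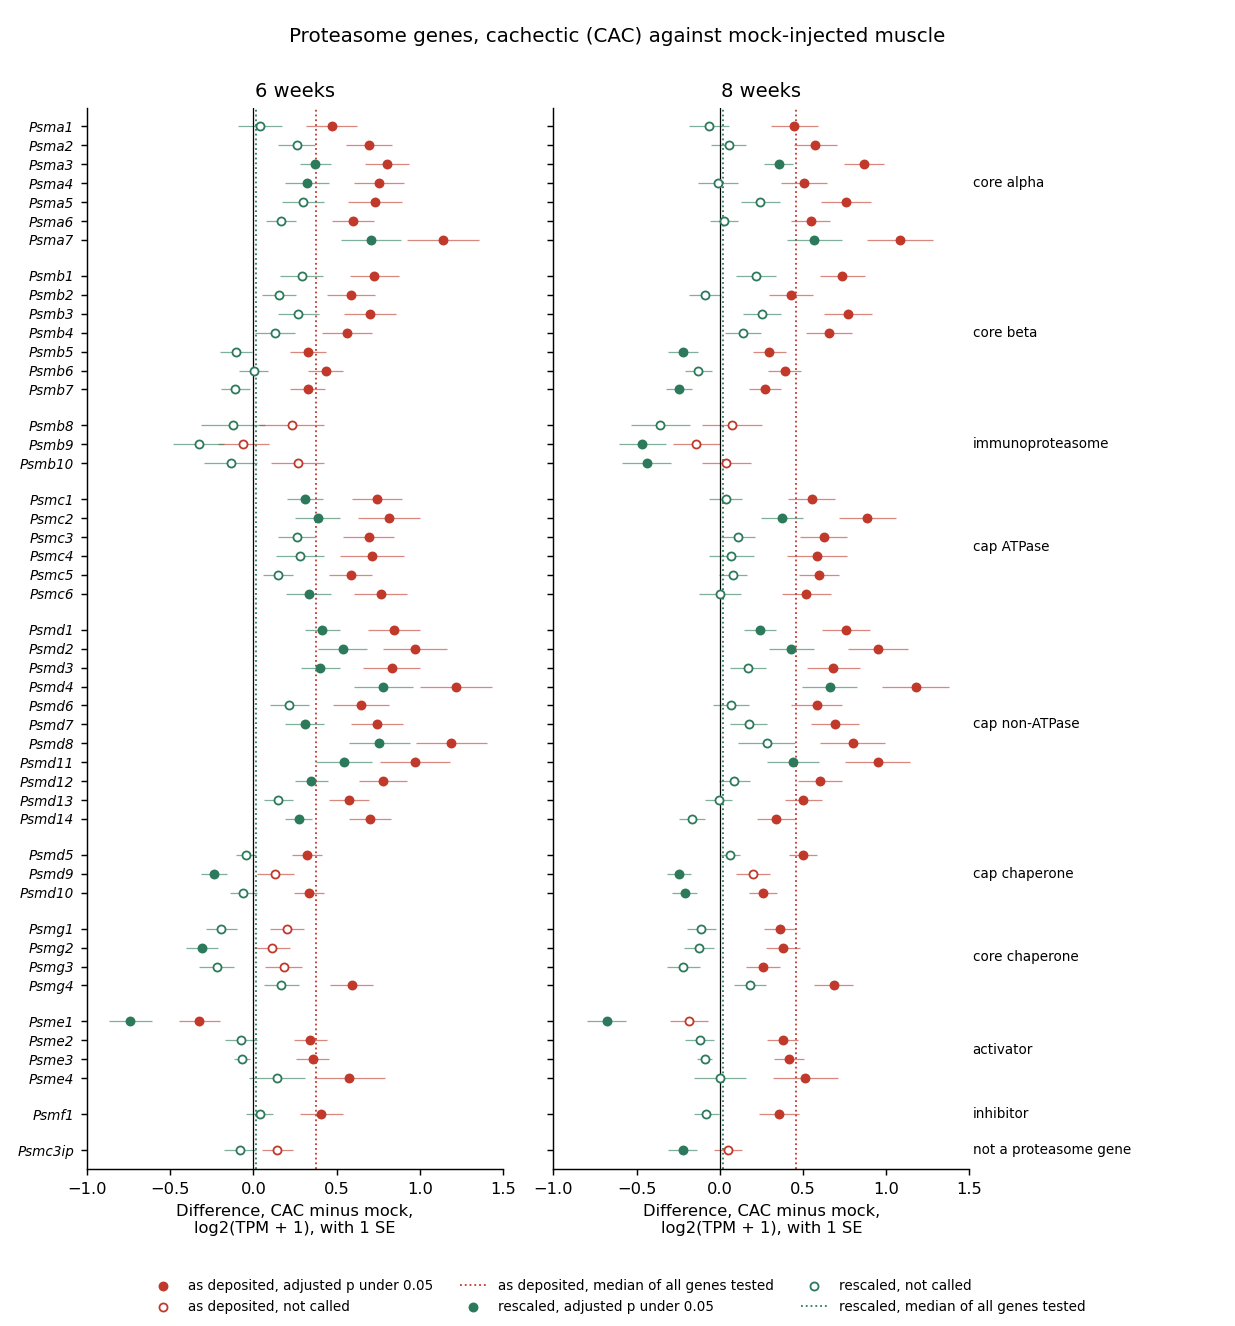
Log2 differences between CAC and mock muscle for the 47 tested members at 6 and 8 weeks, as deposited (red) and after rescaling (green), with bars of 1 SE and filled points for an adjusted p under 0.05. Dotted lines mark the median of all genes tested, 0.38 and 0.46 as deposited, and Psmd4 lies farthest to the right and Psme1 farthest to the left in both weeks, on both scales.

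The 3 constitutive catalytic subunits had smaller differences than Psmd4, Psmd11, Psmd8 and Psmd2, as deposited and after rescaling. Psmb5, the chymotrypsin-like subunit (chr14:54614119-54618022, minus strand), was at 165.3, 137.7, 120.5, 123.4 and 110.9 TPM in CAC muscle at 6 weeks and at 103.0, 101.6, 93.7, 110.2 and 110.2 TPM in mock muscle. The groups were apart by less than 1 TPM. The difference was 0.33 (SE 0.11; adjusted p = 0.007213) as deposited and -0.10 after rescaling, so its direction turned. At 8 weeks Psmb5 ran from 106.7 TPM over 120.3 to 169.6 in CAC muscle and from 76.7 to 121.6 TPM in mock muscle, with overlap. Its difference was 0.30 (adjusted p = 0.006495) as deposited and -0.22 (adjusted p = 0.03748) after rescaling, and without the 3 libraries the rescaled value was -0.21 (adjusted p = 0.05007).

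Psmb6, the caspase-like subunit (chr11:70525367-70527858, plus strand), was at 184.4, 142.6, 133.1, 128.9 and 123.2 TPM in CAC muscle at 6 weeks and at 117.7, 98.4, 98.4, 99.2 and 107.7 TPM in mock muscle, without overlap. It rose by 0.43 at 6 weeks and 0.39 at 8 weeks as deposited and differed by 0.00 and -0.13 after rescaling. Psmb7, the trypsin-like subunit (chr2:38588036-38644087, minus strand), rose by 0.33 and 0.27 as deposited. After rescaling it differed by -0.11 at 6 weeks and was lower by limma at 8 weeks, at -0.25 (adjusted p = 0.007812), also without the 3 libraries (-0.27, adjusted p = 0.002969). The ratio of Psmd4 to Psmb5 within a library, which does not depend on the scale, was 120.5% ± 32.5 (n = 5) in CAC muscle at 6 weeks and 63.4% ± 7.59 (n = 5) in mock muscle. At 8 weeks it was 119.9% ± 52.9 (n = 7) against 59.9% ± 3.77 (n = 5). This ratio was picked after its values were seen and is given without a test.

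**Figure D3:**
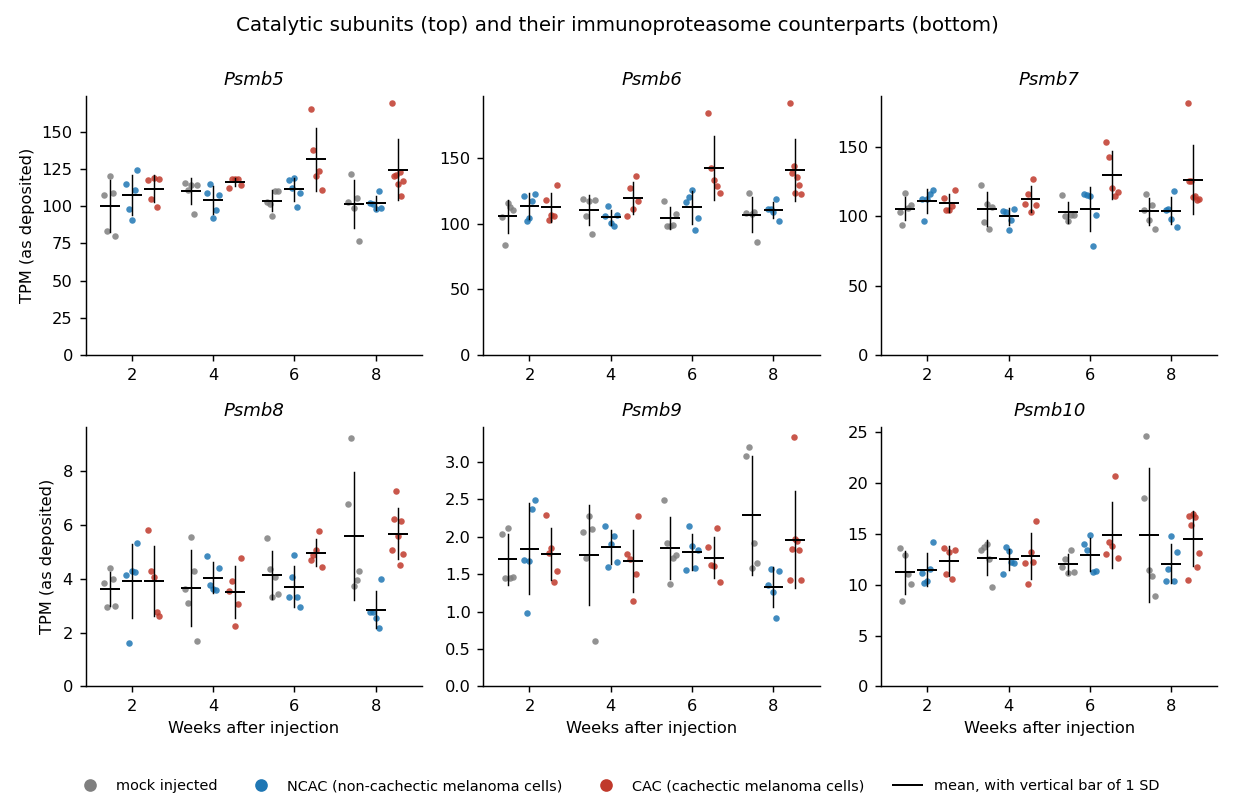
TPM per library of the constitutive catalytic subunits Psmb5, Psmb6 and Psmb7 (upper row) and of the immunoproteasome subunits Psmb8, Psmb9 and Psmb10 (lower row) by week in mock (grey), NCAC (blue) and CAC (red) muscle, with the mean and 1 SD. The axes differ between panels: Psmb5 reaches 169.6 TPM in CAC muscle at 8 weeks and Psmb9 reaches 3.33 TPM.

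None of the 3 immunoproteasome genes passed limma's test in CAC against mock muscle at any week as deposited, and none passed at 6 or 8 weeks with a pseudocount of 0.1, without the filter or with library weights. Psmb8 (chr17:34197721-34201454, plus strand) was at 4.71, 4.88, 5.05, 5.79 and 4.43 TPM in CAC muscle at 6 weeks and at 5.51, 4.36, 3.31, 4.07 and 3.42 TPM in mock muscle. At 8 weeks its CAC range was 4.51 to 7.26 TPM (median 5.58), inside the mock range of 3.73 to 9.25 TPM. Differences were 0.23 (SE 0.20; adjusted p = 0.3001) and 0.07 (SE 0.18; adjusted p = 0.7216), and -0.12 and -0.36 after rescaling, neither of which passed. Psmb10 (chr8:105935735-105938444, minus strand) differed by 0.27 (SE 0.16) and 0.04 (SE 0.15). After rescaling it differed by -0.14 at 6 weeks and was lower at 8 weeks (-0.44, adjusted p = 0.01288), a call that was lost without the 3 libraries (-0.26, adjusted p = 0.1663). Its mock libraries at 8 weeks, replicates 1 to 5, held 18.5, 24.6, 11.4, 10.8 and 8.84 TPM. Mock replicates 1 and 2 were also the highest of that group for Psmb8 (6.79 and 9.25 TPM) and Psmb9. All comparisons with mock muscle at 8 weeks use these libraries.

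Psmb9 (chr17:34181987-34187764, minus strand) was at 1.87, 1.62, 1.61, 2.12 and 1.40 TPM in CAC muscle at 6 weeks, against 2.49, 1.92, 1.37, 1.72 and 1.75 TPM in mock muscle. At 8 weeks it ran from 1.42 over 1.83 to 3.33 TPM in CAC muscle and was at 3.09, 3.20, 1.58, 1.92 and 1.64 TPM in mock muscle. Differences of -0.06 and -0.14 did not pass as deposited, while after rescaling the 8-week value was lower at -0.47 (adjusted p = 0.005424) and, without the 3 libraries, at -0.38 (adjusted p = 0.04551). The median number of estimated reads per library behind these values was 143.5 for Psmb9, 304 for Psmb8 and 487 for Psmb10, and the lowest library had 50 for Psmb9. Of the exon bases of Psmb9, 5.79% overlap Tap1 on the opposite strand (mean 1.57 TPM). Of those of Psmb8, 14.7% overlap Gm20496, which is listed at a mean of 0 TPM. The strand setting of the counting is not given.

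Against NCAC muscle at 8 weeks the values of the immunoproteasome genes were other than against mock muscle, a contrast that was not tested itself. Psmb8 was at 2.77, 2.77, 2.53, 2.17 and 4.00 TPM in NCAC muscle, and every CAC library, from 4.51 TPM up, lay above these. It was higher in CAC muscle by 0.80 (SE 0.18; adjusted p = 0.0001334), and by 0.40 after rescaling, where it did not pass (adjusted p = 0.05458). Psmb9 rose by 0.33 (adjusted p = 0.03456) as deposited and differed by 0.03 after rescaling, and Psmb10 differed by 0.24 (adjusted p = 0.1363). NCAC muscle itself was below mock muscle for Psmb8 by -0.73 (adjusted p = 0.7659) and for Psmb9 by -0.47 (adjusted p = 1), without passing. All NCAC libraries of Psmb9, the highest at 1.57 TPM, lay below the lowest mock library at 1.58 TPM, as in 0.081% of all genes.

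The share of each immunoproteasome subunit relative to the constitutive subunit it replaces was compared within libraries, which removes the choice of scale. Psmb8 was 5.45% ± 1.71 (SD, n = 5) of Psmb5 in mock muscle at 8 weeks, 4.67% ± 1.11 (n = 7) in CAC muscle and 2.81% ± 0.765 (n = 5) in NCAC muscle. The ratio of Psmb9 to Psmb6 at 6 weeks was 1.77% ± 0.280 in mock muscle, 1.60% ± 0.187 in NCAC muscle and 1.23% ± 0.242 in CAC muscle, each with n = 5. At 8 weeks it was 2.11% ± 0.577, 1.21% ± 0.288 and 1.42% ± 0.477 in that order. Psmb10 stood at 14.1% ± 5.11 of Psmb7 in mock muscle at 8 weeks, 11.8% ± 2.76 in NCAC muscle and 11.9% ± 3.11 in CAC muscle. The groups overlapped widely for Psmb10, and the largest gaps were those of Psmb8 and Psmb9 between mock and NCAC muscle at 8 weeks.

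Of 36 two-sided exact permutation tests on these log2 ratios (3 ratios, 12 comparisons) none passed after Benjamini-Hochberg adjustment over the 36, and the smallest adjusted p was 0.2143. The smallest p that such a test can give is 0.007937 for 5 against 5 libraries and 0.001263 for 7 against 5. Before adjustment 5 were under 0.05 in the exact tests. Psmb8 to Psmb5 was higher in CAC than in NCAC muscle at 8 weeks (log2 difference 0.74, exact p = 0.01136) and lower in NCAC than in mock muscle (-0.94, exact p = 0.02381). Psmb9 to Psmb6 was lower in NCAC than in mock muscle at 8 weeks (-0.80, exact p = 0.01587) and, at 6 weeks, lower in CAC than in mock muscle (-0.53, exact p = 0.02381) and than in NCAC muscle (-0.40, exact p = 0.03175). These comparisons share control libraries.

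**Figure D4:**
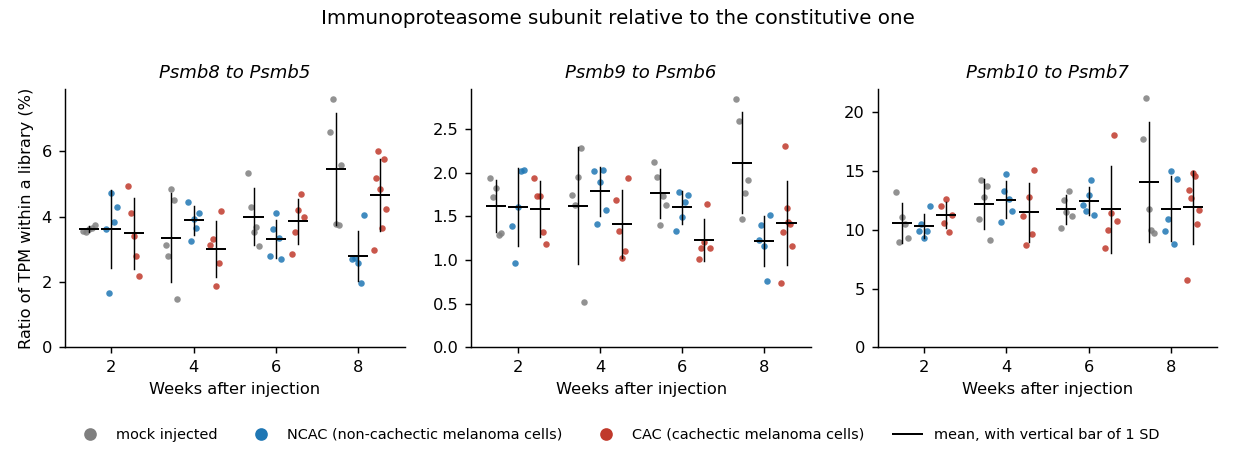
Ratios of Psmb8 to Psmb5, Psmb9 to Psmb6 and Psmb10 to Psmb7 in each library, in percent, by week in mock (grey), NCAC (blue) and CAC (red) muscle, with the mean and 1 SD. Psmb8 to Psmb5 at 8 weeks averages 5.45% in mock, 4.67% in CAC and 2.81% in NCAC muscle, and the mock libraries of that week spread from 3.74% to 7.60%.

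Markers of immune cells, which express the immunoproteasome, were compared in the same libraries. The summed TPM of 10 macrophage and monocyte markers was 159.0 (103.8 to 281.0) in CAC muscle at 8 weeks, 62.5 (45.3 to 97.7) in mock muscle and 41.3 (28.8 to 57.4) in NCAC muscle. Of 8 tested markers 8 were higher in CAC than in mock muscle at 8 weeks (5 after rescaling) and 7 at 6 weeks (6 after rescaling). General leukocyte markers summed to 22.8 TPM (15.0 to 32.1) in CAC, 13.0 (8.50 to 22.2) in mock and 8.61 (5.68 to 12.4) in NCAC muscle at 8 weeks, and 3 of 4 tested were higher in CAC than in mock muscle (1 after rescaling), shares close to the 69.4% and 24.9% of all genes. Both tested neutrophil markers were higher at 8 weeks (1 after rescaling), and the sum of 6 was 26.3 TPM (12.6 to 56.0) in CAC and 6.85 (5.14 to 8.43) in mock muscle. Of 7 endothelial markers 6 were higher and 1 lower at 8 weeks (3 and 1 after rescaling, with sums of 201.6 and 124.0 TPM). Of 4 tested adipocyte markers 4 were higher at 6 weeks (3 after rescaling), against 60.7% and 16.9% of all genes. At 8 weeks 3 of them were higher (1 after rescaling), shares close to those of all genes. Adipocyte sums were 682.6 and 413.7 TPM at 6 weeks and 685.8 and 400.8 TPM at 8 weeks. Most of each sum was Fabp4, at a mean of 465.6 TPM over all libraries. The 9 lymphocyte and natural killer cell markers were low, with mean sums of 0.294 TPM in CAC and 1.56 TPM in mock muscle at 8 weeks and none above the filter. The part of these cells in the values of Psmb8, Psmb9 and Psmb10 was not tested.

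Among the activators Psme1 and Psme2, which form a ring together on the ends of the core, went different ways. Psme1 (chr14:55578123-55581529, plus strand) was at 16.5, 17.0, 20.3, 21.4 and 17.8 TPM in CAC muscle at 6 weeks and at 23.9, 24.0, 21.5, 23.7 and 24.0 TPM in mock muscle. All 5 CAC libraries lay below all mock libraries, by a margin of less than 1 TPM. It was the only member that fell as deposited against mock muscle at 6 weeks, by 0.33 on the log2 scale (SE 0.12; adjusted p = 0.02059), and the call was lost without CAC 6 weeks replicate 1 (-0.29, adjusted p = 0.06159). After rescaling it was lower by limma at -0.74 (adjusted p = 1.751e-05).

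At 8 weeks Psme1 ran from 15.8 TPM over 22.0 to 24.6 in CAC muscle, and the mock libraries were at 25.9, 28.1, 23.5, 22.4 and 18.9 TPM. The groups overlapped, and the lowest CAC libraries were replicates 1 and 6, in which Psmd4 was highest. The difference of -0.19 did not pass as deposited (adjusted p = 0.1399), while after rescaling it was -0.68 (adjusted p = 6.426e-06), and -0.49 (adjusted p = 0.0002027) without the 3 libraries. On the rescaled scale the CAC libraries lay between 10.9 and 19.3 and the mock libraries between 24.2 and 28.1. Against NCAC muscle Psme1 differed by -0.19 at 6 weeks and -0.04 at 8 weeks as deposited, without passing, and was lower at -0.65 and -0.51 after rescaling. At 4 weeks it was lower than in NCAC muscle only after rescaling (-0.49, adjusted p = 0.01487).

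Psme2 (chr14:55587441-55591113, minus strand) was at 30.3, 22.3, 24.6, 28.6 and 24.7 TPM in CAC muscle at 6 weeks and at 22.9, 20.8, 19.5, 19.1 and 19.1 TPM in mock muscle, with overlap through 1 library on each side. The CAC range at 8 weeks was 25.2 to 35.6 TPM (median 28.0), and mock muscle held 22.8, 31.5, 19.1, 20.1 and 17.9 TPM. It rose by 0.34 (adjusted p = 0.003122) and 0.38 (adjusted p = 0.0003295) as deposited and differed by -0.08 and -0.12 after rescaling. Within libraries Psme1 was 116.1% ± 8.98 of Psme2 in mock muscle at 6 weeks (n = 5, 104.4% to 125.4%) and 72.0% ± 10.4 in CAC muscle (n = 5, 54.7% to 82.4%). In NCAC muscle of that week it was 99.7% ± 10.1 (n = 5), and the lowest NCAC library (81.9%) was under the highest CAC library. At 8 weeks the ratio was 108.6% ± 12.5 (n = 5) in mock, 109.4% ± 21.0 (n = 5) in NCAC and 72.6% ± 12.1 (n = 7) in CAC muscle, whose highest library (88.0%) was below the lowest mock library (89.1%). At 4 weeks CAC muscle was at 85.8% ± 10.6 and mock muscle at 107.6% ± 9.21, with overlap (CAC up to 96.8%, mock from 94.1%). This ratio too was chosen after its values were seen and has no test.

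**Figure D5:**
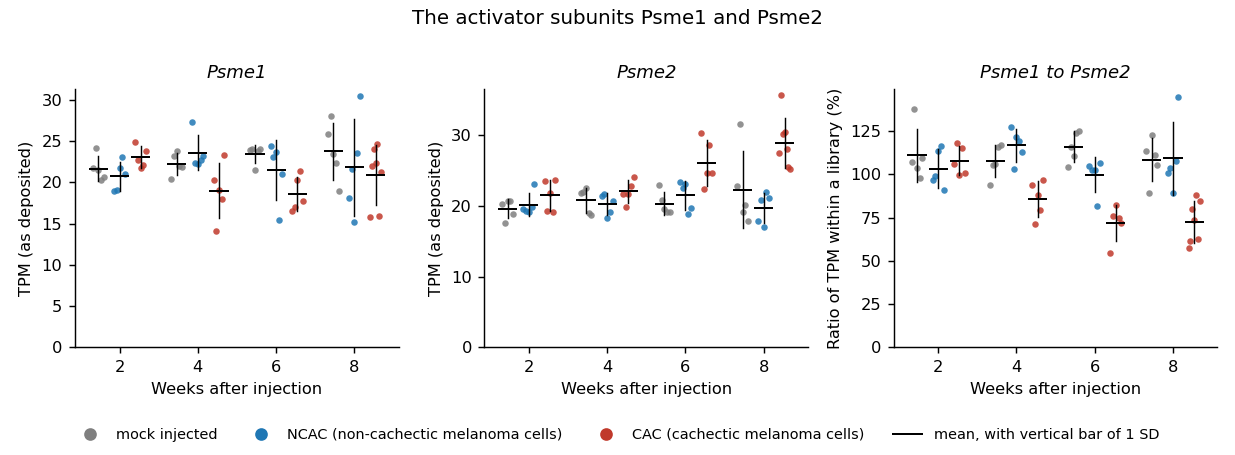
TPM per library of Psme1 and Psme2, and Psme1 as a percentage of Psme2 in the same library, by week in mock (grey), NCAC (blue) and CAC (red) muscle, with the mean and 1 SD. At 6 weeks the ratio averages 116.1% in mock and 72.0% in CAC libraries, and at 8 weeks 108.6% in mock and 72.6% in CAC libraries.

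Psme3, an activator of the nuclear proteasome, was at 54.4, 38.7, 39.5, 39.8 and 39.1 TPM in CAC muscle at 6 weeks, all above the highest mock library at 35.3 TPM. It rose by 0.36 and 0.42 at 6 and 8 weeks and differed by -0.07 and -0.09 after rescaling. Psme4, a large single-chain activator, rose by 0.58 (adjusted p = 0.01708) and 0.51 (adjusted p = 0.01745) as deposited and differed by 0.14 and -8.8e-05 after rescaling. Its CAC libraries at 8 weeks ran from 56.9 over 72.8 to 162.4 TPM, and without the 3 libraries the deposited difference was 0.23 and did not pass (adjusted p = 0.2784). Psmf1, which encodes a proteasome inhibitor protein, was at 9.49, 6.88, 5.16, 6.63 and 5.91 TPM in CAC muscle at 6 weeks and at 5.48, 4.72, 4.03, 4.74 and 5.08 TPM in mock muscle. It rose by 0.41 at 6 weeks and 0.36 at 8 weeks, the latter not called without the 3 libraries (0.20, adjusted p = 0.09698), and by neither after rescaling (0.04 and -0.08).

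Among the assembly chaperones the differences varied by member. Of the core chaperones, Psmg4 rose at both weeks by 0.59 and 0.69 as deposited, with 43.1, 44.2, 38.7, 40.2, 32.3, 32.8 and 31.9 TPM in CAC muscle at 8 weeks, all above the highest mock library (27.2 TPM). Psmg1, Psmg2 and Psmg3 did not pass at 6 weeks (0.20, 0.11 and 0.18) and rose at 8 weeks by 0.36, 0.38 and 0.26. After rescaling Psmg2 was lower at 6 weeks (-0.31, adjusted p = 0.01119), and no core chaperone passed limma's test at 8 weeks. Psmd10, a chaperone of the cap base, rose by 0.33 and 0.26 as deposited, and after rescaling was at -0.06 and, called lower, at -0.21 (adjusted p = 0.01679). Psmd9, another, did not pass as deposited (0.13 and 0.20) and was lower after rescaling at 6 weeks (-0.24, adjusted p = 0.01492) and 8 weeks (-0.24, adjusted p = 0.004726). Psmd9 shares 25.5% of its exon bases with Gm26745 on the opposite strand, which is listed at a mean of 0 TPM. Overlaps with expressed genes on the opposite strand include Psmc3ip with Mlx (21.2% of exon bases, Mlx at 9.95 TPM). Another is Psmd13 with Sirt3 (10.1%, Sirt3 at 25.2 TPM).

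Of the members below the filter, Psme2b, a near copy of Psme2, had a mean of 0.932 TPM over all libraries (0.173 to 2.17) and a median of 16.5 estimated reads. How reads common to Psme2 and Psme2b were divided is not given, so both values are uncertain. Psma8, the testis form of an alpha subunit, averaged 0.0567 TPM and was above 0 in 50 of 62 libraries. Psmb11, the thymus form of a catalytic subunit, averaged 0.00316 TPM and was above 0 in 14 libraries. The tested row Psmc3ip falls under the rule by its symbol but is a recombination factor and no part of the proteasome: it had a mean of 1.17 TPM and did not pass as deposited at 6 or 8 weeks (0.15 and 0.05), while after rescaling it was lower at 8 weeks (-0.22, adjusted p = 0.0318). The 4 pseudogene rows that the rule leaves out (Psmb5-ps, Psmb6-ps, Psmb6-ps2 and Psmb7-ps2) are listed at 0 in all libraries.

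At 2 weeks limma called no member in CAC against mock muscle on either scale, where 0.054% of all genes were called higher as deposited, and 1 member as deposited and 0 after rescaling had an unadjusted p under 0.05. At 4 weeks it called none as deposited (0.891% of all genes higher, 0.045% lower), with 4 members at an unadjusted p under 0.05. After rescaling only Psmd9 was called, lower by -0.28 (adjusted p = 0.04738), where 0.612% of all genes were lower. The 4-week group was nonetheless uneven. Replicates 2 and 4 held 34 members each above the highest mock library of that week, and replicates 1, 3 and 5 held 1, 2 and 5, a split that after rescaling was 30 and 27 against 16, 1 and 0. Psmd4 was at 128.7 and 102.6 TPM in replicates 2 and 4 and at 70.8, 67.7 and 65.5 TPM in the other 3, the latter all below the highest mock library (73.5 TPM). Its mean difference of 0.45 did not pass. Such counts were also uneven at 2 weeks, where no member was called. In CAC muscle of that week replicates 1 to 5 held 20, 3, 7, 11 and 29 members, and 4, 4, 10, 5 and 5 after rescaling. In NCAC muscle of that week they held 19, 0, 3, 14 and 19, and 19, 3, 5, 9 and 31 after rescaling. The counts per library were made for members only, so no share of all genes stands beside them. On the first principal component of all genes tested, CAC 4 weeks replicates 2 and 4 lay at 33.5 and 22.4. Replicates 1, 3 and 5 of that group lay at -13.7, -1.9 and 2.2.

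The same count at 6 weeks was 43, 40, 41, 39 and 38 members in the 5 CAC libraries, so all were high as deposited, and 31, 32, 15, 22 and 14 after rescaling. At 8 weeks the 7 libraries held 39, 41, 26, 26, 34, 37 and 28 members above the highest mock library, and 34, 14, 4, 8, 6, 19 and 10 after rescaling. CAC 8 weeks replicate 1 had the highest value of its group in 36 of 47 members and CAC 6 weeks replicate 1 in 42. Both libraries also stood apart on the first principal component of all genes. These counts in the CAC groups of 6 and 8 weeks were made for members only. Members also spread more than other genes there: the median SD on the log2 scale was 0.36 in CAC muscle at 8 weeks, against 0.26 for all genes, and 0.31 against 0.22 at 6 weeks, while in mock groups it was 0.12 to 0.20. The model takes the spread of a gene as equal in all groups, so where CAC libraries vary more its SE and p are too small for comparisons with CAC. Without the 3 libraries 12 members rose and 3 fell after rescaling at 6 weeks (14.7% and 15.8% of all genes), and 2 rose, Psmd4 and Psma3, and 9 fell at 8 weeks (18.1% and 19.2%).

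Whether the CAC effect changed between weeks was tested with interaction terms. From 4 to 6 weeks limma called no member, against 0.882% of all genes with a larger difference at 6 weeks. Members with an unadjusted p under 0.05 numbered 27, and 28 passed with library weights, counts for which no share of all genes is given. Psmd8, for example, gained 0.78 (SE 0.30; adjusted p = 0.1171) and Psmd4 0.77 (SE 0.31; adjusted p = 0.1257). From 6 to 8 weeks limma called none, nor any other gene (0%), and 1 member had an unadjusted p under 0.05.

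CAC was also compared with NCAC muscle, which separates the cachectic from the other melanoma injection. At 2 weeks limma called no member on either scale (0.063% of all genes higher as deposited, 0.009% lower after rescaling), and none had an unadjusted p under 0.05 as deposited. At 4 weeks it called none as deposited (4.68% higher and 0.585% lower among all genes), 10 members had an unadjusted p under 0.05, and Psme1 alone was called, lower, after rescaling (3.66% of all genes, with 2.8% higher). At 6 weeks 37 rose and none fell as deposited (64.2% and 3.52% of all genes), and 12 rose and 7 fell after rescaling (20.8% and 21.7%), or 31 and 2 when rescaled without mitochondrially encoded genes (44.6% and 9.19%). At 8 weeks 44 rose and none fell (67% and 5.04%), and 5 rose and 5 fell after rescaling (25.3% and 24.3%), or 25 and 1 when rescaled without mitochondrially encoded genes (48.5% and 11.2%). Psmd4 differed from NCAC muscle by 1.24 and 1.07 at the later weeks as deposited and by 0.75 and 0.58 after rescaling, Psma7 by 1.17 and 1.06 and by 0.69 and 0.57, all 8 values called. The groups did not overlap, with CAC above, in 30 members at 6 weeks (43.1% of all genes) and 25 at 8 weeks (40.1%).

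NCAC muscle did not differ from mock muscle in any member by limma at any week, on either scale, where few genes of any kind were called: at 2 weeks 0.162% lower as deposited and 0.018% higher after rescaling, and at 8 weeks 0.009% higher as deposited and 0.009% in each direction after rescaling. At 2, 4, 6 and 8 weeks 1, 0, 0 and 2 members had an unadjusted p under 0.05 as deposited, and 2, 0, 0 and 2 after rescaling. The CAC and NCAC comparisons with mock muscle use the same mock libraries. Psmd4 had means of 64.7 TPM ± 6.76 (n = 5) at 6 weeks and 65.1 ± 8.26 (n = 5) at 8 weeks in NCAC muscle, beside 65.7 ± 8.08 and 60.5 ± 8.84 in mock muscle. In NCAC 6 weeks replicate 4, the library with the lowest size factor (0.614), 0 members were above the highest mock library as deposited and 31 after rescaling. This count too was made for members only.

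Genes that act with the proteasome were described from lists, by calls in CAC against mock muscle. The background is that of the members: 60.7% of all genes were higher at 6 weeks and 69.4% at 8 weeks, and 16.9% and 24.9% after rescaling, when 18.1% and 24.2% were lower. Of 6 tested proteasome factors without a Psm symbol all 6 rose at both weeks, and 2 after rescaling at each, with 2 lower at 8 weeks. The ubiquitin receptor Adrm1, which binds the cap, rose by 0.85 at 8 weeks (adjusted p = 2.366e-05) and 0.34 after rescaling, the cap-bound deubiquitinase Usp14 by 0.74 and 0.25, and the core chaperone Pomp by 0.22 as deposited, but it was lower after rescaling (-0.27, adjusted p = 0.001379). Of 13 tested shuttle and unfoldase genes 13 rose at 6 weeks and 12 at 8 weeks (3 and 8 after rescaling, with 2 lower at 8 weeks).

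Of 15 regulators of transcription linked to proteasome genes 14 rose at each week (7 and 9 after rescaling, with 1 and 2 lower), with a median of 1.04 at 8 weeks against 0.46 for all genes. Stat3 was at 48.8 TPM ± 13.7 (SD, n = 7) in CAC muscle and 10.5 ± 2.43 (n = 5) in mock muscle at 8 weeks (2.10, adjusted p = 1.646e-15; rescaled 1.60) and was also called at 2 weeks (0.90, adjusted p = 0.01175) and 4 weeks (1.37, adjusted p = 3.25e-07). Nfe2l2, which drives antioxidant response genes, rose by 1.09 (0.59 after rescaling). Nfe2l1, the factor known for restoring proteasome gene expression when the proteasome is inhibited, did not pass (0.15, adjusted p = 0.2218) and was lower after rescaling (-0.37, adjusted p = 0.001925).

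Of 6 ubiquitin and ubiquitin-activating genes 3 rose at 6 weeks and 6 at 8 weeks (2 each after rescaling, with 1 lower at 6 weeks), among them the polyubiquitin gene Ubb by 1.63 at 8 weeks (rescaled 1.11). Among 18 conjugating enzymes 9 and 13 rose as deposited, but 1 rose and 7 fell after rescaling at 8 weeks. Ube2j1, which sits in the endoplasmic reticulum membrane, rose by 1.13 (rescaled 0.63). Among 17 muscle ubiquitin ligases 10 rose and 1 fell at 6 weeks and 13 rose and 1 fell at 8 weeks, and 3 rose and 5 fell after rescaling at 8 weeks, so that the shares of conjugating enzymes and ligases higher as deposited at 8 weeks were close to that of all genes. The atrophy ligase Trim63 averaged 1367 TPM ± 1752 (n = 7) in CAC muscle at 8 weeks against 119.9 ± 27.0 (n = 5), a difference of 2.34 (adjusted p = 8.439e-05; rescaled 1.82). Fbxo32, the other classical atrophy ligase, rose by 1.65 (adjusted p = 0.004275) and, rescaled, differed by 1.14 without passing (adjusted p = 0.05359).

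Of 25 tested interferon signalling and antigen presentation genes, the setting in which immunoproteasome genes are usually induced, 8 rose and none fell at 6 weeks, and 7 rose and 4 fell at 8 weeks. After rescaling 1 rose and 12 fell at 8 weeks. Irf1, a transcription factor of immunoproteasome genes, differed by -0.03 as deposited and was lower at -0.47 after rescaling (adjusted p = 0.0112). Ifngr1, an interferon gamma receptor chain, rose by 0.98 (rescaled 0.49). Against NCAC muscle at 8 weeks 16 of the 25 rose and none fell as deposited, and 7 rose and 1 fell after rescaling, close to the 67% and 25.3% of all genes higher in that comparison. In NCAC against mock muscle at 8 weeks limma called 0 of the 25, whose median difference was -0.44 against 0.03 for all genes.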

How the data were processed

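The deposited table gives TPM per gene, computed by the authors; the submitters' processing notes name the build mm10, and for the aligner, counter, strand setting and annotation the sources used here give nothing. The kit was a stranded mRNA one, per the labels' protocols. Each column summed to 1000000 TPM, and 0 columns lacked a sample. Raw counts were not used here. The steps between low TPM values gave an estimate of depth; 82.3% to 84.9% of these values per library came out as whole reads (within 0.05 of a read), with 46.3 to 54.1 M reads (M for 1000000; median 48.7).

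The 11107 genes (of 23019 with any value above 0) whose mean over the 62 libraries reached 1 TPM were fitted on log2(TPM + 1) with limma 3.58.1 in R 4.3.3, in 1 model of 12 groups with a mean-variance trend and 50 residual degrees of freedom. P-values were adjusted by Benjamini-Hochberg within each contrast over all genes tested, and a gene was called at an adjusted p under 0.05. A fold on this scale understates changes of low genes. The model assumes equal spread in all groups. Ratios between genes of a library used TPM without a pseudocount and two-sided exact permutation tests.

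Results were recomputed with a pseudocount of 0.1, no filter, median-of-ratios rescaling, library weights and only the groups of the weeks compared. A replicate block was also tried, and each library was left out in turn. A second rescaling left out the mitochondrially encoded genes and brought the others to 1000000 TPM per library, without size factors. Leaving out the 3 libraries at the far end of principal component 1, or those with over 100 TPM of Alb, and combining these with rescaling, was chosen after seeing the data. The tests were tried on simulated data. Members and lists were chosen with earlier results of these data known. Named were a panel of catalytic, immunoproteasome, activator, inhibitor and chaperone genes with Psma3, Psmc4, Psmd4 and Psmd11, the 4 largest and 4 smallest differences between CAC and mock muscle at 6 and 8 weeks, the members that did not pass there and those below the filter. Of each list, up to 4 called genes with the smallest adjusted p at 8 weeks were eligible, plus a few fixed genes, among them Irf1, Nfe2l1, Nfe2l2, Trim63, Fbxo32 and Ubb; some list genes are not reported here. Others named with values (Psmd6, Psmd13 and Pomp among them) were picked after their values were seen. Coordinates are from GENCODE M21 on GRCm38 and promoters from RefSeq on GRCm38.p6.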

Additional observations from a re-analysis of the deposited data

Results flagged for a closer look

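In 27 of 288 sets of libraries (24 named members in 12 groups) the highest or lowest library lay far from the others. The nominal rate of such flags is about 1 in 20 for separate sets. Members share the same libraries, and 7 flags came from CAC 8 weeks replicate 1 and 5 from CAC 6 weeks replicate 1. The count is therefore no test against that rate. CAC 8 weeks replicate 1 was the highest by such a gap for Psma3 (174.5 TPM; others up to 107.2), Psma7 (251.0; up to 132.2), Psmb5 (169.6; up to 123.1), Psmb6 (192.2; up to 144.4), Psmb7 (181.7; up to 125.6), the ATPase Psmc4 (181.8; up to 102.8) and Psmd2 (424.6; up to 247.6). CAC 6 weeks replicate 1 was the highest for Psma7 (198.2 TPM; others up to 103.0), Psmd2 (373.0; up to 224.6), Psme3 (54.35; up to 39.79), Psmd10 (13.03; up to 9.579) and Psmd9 (8.058; up to 5.781). These are among the 3 libraries that stood apart.

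In CAC muscle, Psmb10 was 20.62 TPM in 6 weeks replicate 4 (others up to 14.23), Psmb9 was 3.33 in 8 weeks replicate 3 (up to 1.972) and Psmd8 was 64.04 in 2 weeks replicate 5 (up to 53.82). NCAC 6 weeks replicate 4, in which mitochondrially encoded transcripts took 61.07% of the library, was the lowest for Psmd11 (16.05 TPM; others from 26.94), Psmd10 (7.077; from 8.383) and Psmf1 (3.008; from 4.613).

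Single NCAC libraries stood apart for Psmf1 (3.918 TPM, lowest) and Psme2 (23.04, highest) at 2 weeks and for Psme1 (27.32, highest) and Psmg3 (8.925, lowest) at 4 weeks. Single mock libraries did for Psmg3 at 2 weeks (8.683, lowest), Psmb5 at 4 weeks (94.84, lowest), and Psma3 (65.16, highest), Psmb7 (115.7, highest) and Psme1 (21.52, lowest) at 6 weeks.

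For 2 members every CAC library lay on one side of the mock mean in one week and on the other in another. Psmd9 differed from the mock mean by -0.833 TPM at 4 weeks and by 0.674 TPM at 6 weeks, and in limma the change between these weeks was 0.30 (SE 0.16; adjusted p = 0.2031). Psme1 differed by 1.40 TPM at 2 weeks and by -4.86 TPM at 6 weeks, a difference that was not tested.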

How the results depend on the processing

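Median-of-ratios rescaling changed more calls than the pseudocount, the filter or the replicate block. Under it the members higher against mock muscle went to 15 and 7 at 6 and 8 weeks and against NCAC muscle to 12 and 5, and those lower to 1, 3 and 8 against mock and 1, 7 and 5 against NCAC muscle at 4, 6 and 8 weeks. Rescaled without mitochondrially encoded genes, 25 were higher and 2 lower against mock muscle at 8 weeks, 25 higher and 1 lower against NCAC muscle at 8 weeks, and 1 and 2 lower against NCAC muscle at 4 and 6 weeks. Against NCAC muscle at 4 weeks 1 member was higher with library weights, 1 with only the groups of that week and 7 without the 3 libraries, and library weights gave 1 lower at 4 weeks and 1 at 6 weeks and 28 that differed between 4 and 6 weeks. For the counts with library weights no share of all genes is given. Rescaled without the 3 libraries, 2 were higher at 8 weeks. The cause was not tested.

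Rescaling turned the direction of Psmb5 (-0.10), Psmb7 (-0.11), Psmb8 (-0.12), Psmb10 (-0.14), Psmc3ip (-0.0814), Psmd9 (-0.24), Psmd10 (-0.0596), Psme2 (-0.0759), Psme3 (-0.0696), Psmg1 (-0.19), Psmg2 (-0.31) and Psmg3 (-0.22) at 6 weeks against mock muscle. At 8 weeks it turned Psmb5 (-0.22), Psmb6 (-0.13), Psmb7 (-0.25), Psmb8 (-0.36), Psmb10 (-0.44), Psmc3ip (-0.22), Psmd9 (-0.24), Psmd10 (-0.21), Psme2 (-0.12), Psme3 (-0.0915), Psme4 (-8.8e-05), Psmf1 (-0.0803), Psmg1 (-0.11), Psmg2 (-0.12) and Psmg3 (-0.22). The second rescaling, to the total without mitochondrially encoded genes, turned Psmd9 (-0.0736), Psmg1 (-0.0122), Psmg2 (-0.12) and Psmg3 (-0.0375) at 6 weeks. At 8 weeks the same rescaling turned Psmb7 (-0.0203), Psmb8 (-0.18), Psmb10 (-0.24), Psmc3ip (-0.14), Psmd9 (-0.0546), Psmd10 (-0.0053) and Psmg3 (-0.00986). With a pseudocount of 1 the log2 ratio of Psmb9 to Psmb6 in CAC against NCAC muscle became -0.005477 at 2 weeks and -0.003646 at 8 weeks.

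Leaving out each library in turn gave 36 to 39 and 39 to 42 members higher against mock muscle at 6 and 8 weeks, 32 to 38 and 36 to 44 against NCAC muscle, 0 to 1 lower against mock (0 without CAC 6 weeks replicate 1) and against NCAC muscle at 6 weeks (1 without NCAC 6 weeks replicate 4), and 0 to 4 that differed between 4 and 6 weeks (4 without CAC 4 weeks replicate 2). After rescaling it gave 6 to 20 higher at 6 weeks (6 without CAC replicate 1, 20 without replicate 5), 4 to 11 at 8 weeks (4 without CAC replicate 1, 11 without replicate 3) and 5 to 11 lower at 8 weeks (5 without mock replicate 1 or 2, 11 without CAC replicate 3). For these counts no share of all genes is given. Signs turned for Psmb10 (-0.11 to 0.24) and Psmb8 (-0.0299 to 0.25) at 8 weeks and Psmb9 (-0.12 to 0.0145) at 6 weeks. They also turned for the log2 ratios of Psmb10 to Psmb7 (CAC against NCAC 8 weeks -0.11 to 0.16, CAC against mock 6 weeks -0.21 to 0.0636, NCAC against mock -0.0893 to 0.0508 at 2 and -0.043 to 0.12 at 4 weeks), Psmb8 to Psmb5 (CAC against NCAC 2 weeks -0.29 to 0.13, CAC against mock -0.25 to 0.0425, -0.35 to 0.0769 and -0.13 to 0.066 at 2, 4 and 6 weeks, NCAC against mock 2 weeks -0.20 to 0.18) and Psmb9 to Psmb6 (CAC against NCAC 2 weeks -0.16 to 0.10, CAC against mock -0.11 to 0.0633 and -0.455 to 0.0834 at 2 and 4 weeks, NCAC against mock -0.14 to 0.13 and -0.0913 to 0.45 at 2 and 4 weeks).

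The replicate numbers did not pair the libraries: deviations of same-numbered libraries had a median correlation of -0.01398, against 0.0009726 for other numbers, and 14 of 62 libraries correlated best with their own number. With the replicate block 38 and 41 members were higher against mock muscle at 6 and 8 weeks, and all 74 results kept their direction and side of the threshold. Depth limits Psmb11, Psma8 and Psme2b, with few reads per library.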
